A study of Mus musculus with 16 samples.

Results

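The ATF4-CHOP transcription factor network is described here through 10 genes chosen by name: *Atf4*, *Atf5*, *Atf3*, *Ddit3* (the gene of CHOP), *Cebpb*, *Cebpg*, *Nupr1*, *Trib3*, *Chac1* and *Sesn2*. They are 10 of the 51060 genes in the deposited files, and all 10 were among the 15632 genes kept after low counts were filtered out. RNA was sequenced from brown adipose tissue (BAT) of 16 mice aged 7 weeks, on a C57Bl/6J background, fed regular chow and housed at ambient temperature. The 4 female and 4 male WT mice carried the floxed *Opa1* alleles without Cre. The 4 female and 4 male OPA1 BKO mice carried the same floxed alleles with Cre driven by the *Ucp1* promoter, which limits the deletion to cells that use this promoter and leaves *Opa1* intact in the other cells of the depot. OPA1 is a protein of the inner mitochondrial membrane that fuses mitochondria and shapes their cristae.

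ATF4 is the main transcription factor of the integrated stress response. When kinases phosphorylate the translation factor eIF2α, most protein synthesis falls, but ribosomes reach the ATF4 coding sequence more often, and ATF4 then switches on genes of amino acid supply and stress defence. It binds DNA as a dimer with other basic leucine zipper (bZIP) proteins, among them C/EBP proteins and CHOP, and several of its targets feed back on it. *Ddit3*, *Atf3*, *Atf5*, *Trib3*, *Chac1*, *Sesn2* and *Nupr1* are described in the literature as ATF4 targets, so the network holds both factors and their products. RNA counts do not measure ATF4 protein or its activity.

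ATF4 with a C/EBP partner binds composite sites called C/EBP-ATF response elements, whose core was searched as TGATGNAA. A like site, TGACGCAA, and the palindrome bound by CREB and ATF dimers, TGACGTCA, were searched as well, each on both strands, in 300-base windows from 250 bases before to 50 bases after each gene's RefSeq start in GRCm38.p6. Among all 32851 windows, 3.97% held TGATGNAA, 0.49% held TGACGCAA and 1.79% held TGACGTCA, and 6.17% held at least 1 of them. All 10 members had a window, *Atf5* having a second one, and 4 members had a match, which was TGATGNAA in each. The stretches around it in *Atf3*, *Nupr1* and *Chac1* are shown because these members share the letters TTGCATCA, the core read on the other strand. These members were higher in OPA1 BKO mice, but so were *Atf4*, *Atf5*, *Ddit3* and *Cebpg*, which had no match. Capitals mark the match, and the sequences are written from 5′ to 3′ on the strand of the gene.
Atf3: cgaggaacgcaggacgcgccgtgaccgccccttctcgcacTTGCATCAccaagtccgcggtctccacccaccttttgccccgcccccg
Nupr1: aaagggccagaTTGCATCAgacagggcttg
Chac1: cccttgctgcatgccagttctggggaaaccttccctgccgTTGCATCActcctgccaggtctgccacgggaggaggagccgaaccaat

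The *Atf3* stretch is chr1:191183396-191183483 on the minus strand, with the match 110 bases before the RefSeq start, and lies in an intron of the longer transcript Atf3-203. The *Nupr1* stretch is chr7:126625562-126625591 on the minus strand, with the match also 110 bases before the start, and lies in an exon of Nupr1-201 in GENCODE. The *Chac1* stretch is chr2:119351009-119351096 on the plus strand and precedes every annotated *Chac1* transcript, with the match 193 bases before the start. *Chac1* also held TGACGCAA 250 bases before its start, and *Trib3* held TTACATCA 15 bases after its start. None of these letters was in the windows of *Atf4*, *Atf5*, *Ddit3*, *Cebpb*, *Cebpg* or *Sesn2*, which says nothing of sites elsewhere. The matches were read from the reference sequence, and binding was not measured.

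The libraries held 13607283 to 23114534 estimated counts each. *Opa1* was at 152 to 209 CPM (counts scaled to a common library total) in WT mice, compared with 17.9 to 36.8 CPM after OPA1 loss. Every library thus matched the genotype in its label, while the sex in the labels was not checked. Transcripts of the mitochondrial genome took 23.1% to 30.4% of the counts in WT mice, compared with 4.41% to 8.96% after OPA1 loss, and levels are therefore given as CPM scaled by TMM, which sets the balance of most genes to no change. With TMM, the median log2 fold change of all genes was 0.01, and 3256 genes were higher and 3157 lower after OPA1 loss. Scaled by library size alone, the median was 0.57, with 10863 genes higher and 374 lower, and on log2(TPM + 0.5) it was 0.81, with 13480 higher and 118 lower. TPM is the count divided by transcript length and brought to 1 total per mouse. Markers of other cells also differed between the libraries. Of 10 macrophage markers 9 were higher in OPA1 BKO mice and none lower, and their sum was 75.9 to 110 CPM in WT against 112 to 504 CPM with OPA1 loss. The 10 skeletal muscle markers summed to between 20.6 and 6815 CPM in WT and between 3.5 and 16420 CPM in OPA1 BKO mice, and none of the 10 was called different. Of 8 fibroblast and preadipocyte markers 5 were higher, of 8 endothelial markers 5 were lower, and of 10 lymphocyte markers 2 were lower, but on log2(TPM + 0.5) 8 endothelial and 4 lymphocyte markers were higher and none lower. Among 10 brown adipocyte markers 1 was higher and 3 were lower with TMM, against 6 and 1 on log2(TPM + 0.5). Their sum in TMM-scaled CPM was 14314 to 21584 in WT against 8419 to 13950 in OPA1 BKO mice, without overlap. The markers with the most counts weigh most in this sum, and 6 of the 10 were not called with TMM. No listed marker was at 0 in all mice. In bulk tissue, fewer cells of a type and less RNA per cell cannot be told apart.

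Loss of OPA1 in BAT was accompanied by a rise of most of the network. Of the 10 members, 8 were higher in OPA1 BKO mice than in WT mice at an adjusted p under 0.05 (edgeR's quasi-likelihood test, adjusted for sex, with the Benjamini-Hochberg method applied over all genes), against 20.8% of all genes tested. *Cebpb* was lower, as were 20.2% of all genes, although its direction depended on the scaling as given below, and *Sesn2* was not called. In 7 members the 8 OPA1 BKO mice were all above the 8 WT mice, against 5.07% of all genes. The median log2 fold change was 1.53 over the 10 members and 0.01 over all genes. All p-values measure the spread between mice.

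**Figure D1:**
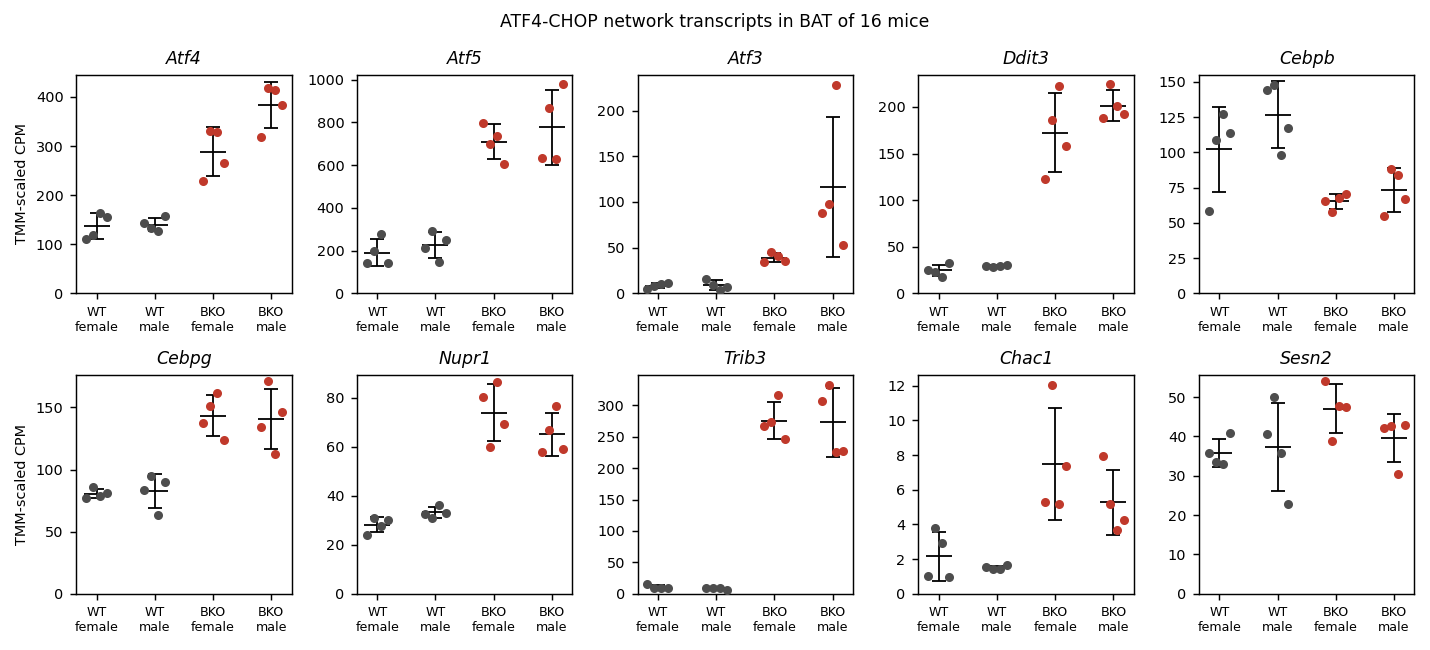
Level of each member in TMM-scaled CPM (y axis, linear, from 0) in each mouse, by genotype and sex (4 mice per group, points), with the group mean and SD (bars). The OPA1 BKO mice lie above the WT mice in all panels but *Cebpb*, *Chac1* and *Sesn2*, and *Cebpb* was lower on this scale but not on log2(TPM + 0.5).

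*Atf4*, the hub of the network (ENSMUSG00000042406.8, chr15:80255184-80257541 on the plus strand in GRCm38), was at 111, 119, 165 and 155 CPM in the 4 WT females and at 144, 132, 127 and 158 CPM in the 4 WT males. It was at 229, 332, 328 and 266 CPM in the OPA1 BKO females and at 319, 419, 414 and 383 CPM in the OPA1 BKO males. The lowest OPA1 BKO mouse, a female, was well above the highest WT mouse, also a female. The mean of 139 ± 19.5 CPM (SD, n = 8) in WT mice compared with 336 ± 67.4 CPM (SD, n = 8) in the OPA1 BKO group, a log2 fold change of 1.26 (SE 0.11, adjusted p = 4.57e-07 by edgeR), or 2.4-fold. *Atf4* had the 641st largest log2 fold change of the 15632 genes. Almost all of its TPM belonged to the coding transcript Atf4-201, whose share was 93.6% to 96.5% in WT against 97.9% to 99% with OPA1 loss. The retained-intron transcript Atf4-203 made up 3.54% to 6.3% in WT against 0.99% to 2.08% with OPA1 loss, so neither share overlapped between the genotypes. The level of Atf4-203 itself was 3.49 ± 0.67 TPM in WT and 5.17 ± 1.1 TPM after OPA1 loss (SD, n = 8 each). On the TPM scale most genes were higher.

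*Ddit3* encodes CHOP, a C/EBP relative known for its part in cell death under lasting ER stress (ENSMUSG00000025408.15, chr10:127290774-127296288 on the plus strand). It was at 25.5, 22.6, 18 and 32.6 CPM in WT females and at 29.6, 27.9, 29.3 and 30.5 CPM in WT males. It was at 123, 186, 222 and 158 CPM in OPA1 BKO females and at 188, 224, 201 and 192 CPM in OPA1 BKO males. All 8 OPA1 BKO mice were far above the WT mice, and the lowest of them was the female that was also lowest in *Atf4*. The mean of 27 ± 4.76 CPM (SD, n = 8) in WT mice compared with 187 ± 33.5 CPM (SD, n = 8) in the OPA1 BKO group, with a log2 fold change of 2.79 (SE 0.12, edgeR adjusted p = 1.97e-10). The retained-intron transcript Ddit3-202 made up 8.47% to 17.5% of the gene's TPM in WT mice, compared with 2.54% to 6.15% after OPA1 loss, with no overlap. Its own level was 3.79 ± 1.56 TPM in WT and 16 ± 3.42 TPM after OPA1 loss (SD, n = 8 each). The retained-intron transcripts of *Cebpg*, *Nupr1* and *Trib3* had shares that overlapped between the genotypes. Such shares were not compared over all genes. *Ddit3* overlaps *Mars* on the opposite strand, and other annotated genes hold 6.78% of its 31-base words. The share from *Mars* was 2.22%.

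*Atf5* encodes a bZIP factor that regulates mitochondrial stress genes (ENSMUSG00000038539.15, chr7:44812256-44816658 on the minus strand). Its level was 144 to 292 CPM in WT mice, with a median of 204, and 604 to 981 CPM in OPA1 BKO mice, with a median of 718. It rose by 1.89 in females and 1.79 in males on the log2 scale, and the overall log2 fold change was 1.84 (SE 0.16, edgeR adjusted p = 3.94e-07). The transcript Atf5-201 carried 94% to 98.2% of its TPM in WT mice, compared with 98.2% to 99.3% after OPA1 loss.

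*Atf3*, a stress-induced bZIP factor that often represses its targets (ENSMUSG00000026628.13, chr1:191170296-191218039 on the minus strand), varied most among the members in OPA1 BKO mice. It was at 4.31, 8.43, 10.1 and 11.2 CPM in WT females and at 16.1, 9.18, 4.11 and 6.56 CPM in WT males. The OPA1 BKO females stood close together at 34.8, 45.5, 40.5 and 35 CPM, while the OPA1 BKO males spread over 87.9, 97.8, 228 and 52.7 CPM. Every OPA1 BKO male was above every OPA1 BKO female, and all 8 were above the WT mice. The log2 fold change was 2.95 (SE 0.37, edgeR adjusted p = 1.54e-05), and it was 2.64 (adjusted p = 5.35e-06) without the male at 228 CPM. That male also had the largest sum of macrophage markers, 504 CPM. The OPA1 BKO female with the smallest sum, 112 CPM, close to the WT maximum of 110, had *Atf3* at 40.5, *Ddit3* at 222 and *Trib3* at 317 CPM, all far above the WT range. The male at 228 CPM also had the largest sum of fibroblast and preadipocyte markers, 1033 CPM. The part of macrophages or other cells in the spread of *Atf3* was not tested.

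The C/EBP members moved in different ways. *Cebpg* encodes a short C/EBP protein that pairs with ATF4 (ENSMUSG00000056216.9, chr7:35046422-35056573 on the minus strand). It was at 63.6 to 94.5 CPM in WT mice against 113 to 171 CPM with OPA1 loss, without overlap, and its log2 fold change of 0.80 (SE 0.09, edgeR adjusted p = 6.19e-06) was the smallest rise that was called among the members. Its long transcript Cebpg-202 carried a median of 89.7% of the TPM in WT and 78.1% in OPA1 BKO mice, and the short Cebpg-201 a median of 4.82% and 14.2%, with overlapping ranges in both.

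*Cebpb* encodes C/EBPβ, a factor of adipocyte differentiation that also joins stress responses (ENSMUSG00000056501.3, chr2:167688915-167690418 on the plus strand). It was at 58.2, 109, 127 and 114 CPM in WT females and at 144, 148, 98 and 117 CPM in WT males. It was at 65.5, 57.4, 67.4 and 70.6 CPM in OPA1 BKO females and at 54.9, 88.1, 84 and 66.8 CPM in OPA1 BKO males. A single WT female at 58.2 CPM lay within the OPA1 BKO range, and the other 7 WT mice were above all OPA1 BKO mice. The log2 fold change was -0.72 (SE 0.14, edgeR adjusted p = 0.000929) with TMM, -0.16 (adjusted p = 0.307) with library size alone and 0.26 (adjusted p = 0.115, limma) on log2(TPM + 0.5). Relative to the median of all genes on the same scale, these were -0.73, -0.73 and -0.55. Without the 6 mice whose muscle markers summed to 3000 CPM or more, a choice made after seeing the data, it was -0.57 (edgeR adjusted p = 0.0533). Of the 31-base words of *Cebpb*, 19.2% are shared with *Tmem189*, which overlaps it on the opposite strand, so its estimate may hold reads of both genes.

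**Figure D2:**
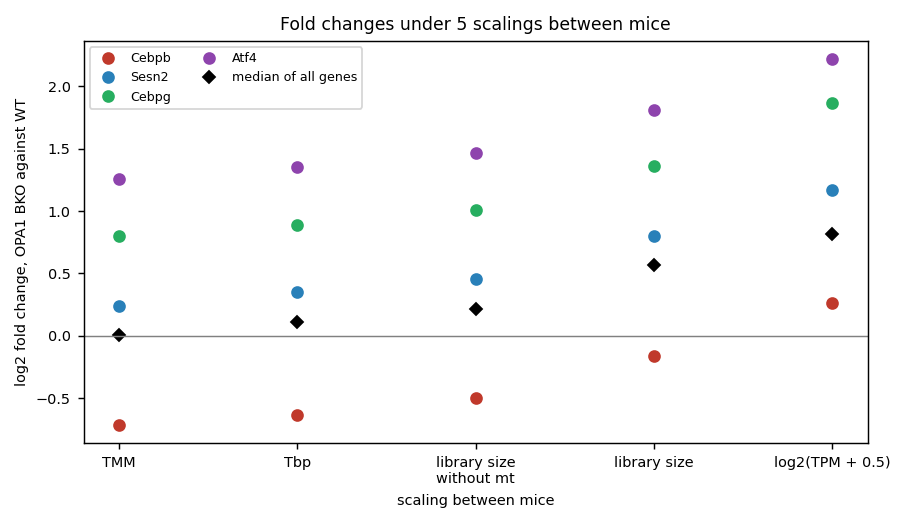
Log2 fold change of OPA1 BKO against WT mice (y axis) for *Atf4*, *Cebpg*, *Sesn2* and *Cebpb* under 5 scalings between mice (x axis), with the median of all genes as diamonds. All points rise together from TMM to TPM, and *Cebpb* stays below the median of all genes while its value goes from -0.72 with TMM to 0.26 on log2(TPM + 0.5).

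*Trib3* had the largest log2 fold change of the 10 members. *Trib3* encodes a pseudokinase that restrains ATF4 and CHOP (ENSMUSG00000032715.9, chr2:152337422-152344032 on the minus strand). It was at 15.8, 9.78, 8.74 and 9.59 CPM in WT females and at 9.37, 8.97, 9.83 and 5.25 CPM in WT males. It was at 267, 274, 317 and 246 CPM in OPA1 BKO females and at 308, 332, 226 and 227 CPM in OPA1 BKO males. The groups were thus separated by a wide gap, with no intermediate mouse. The mean of 9.66 ± 2.88 CPM (SD, n = 8) in WT mice compared with 275 ± 40.9 CPM (SD, n = 8) in the OPA1 BKO group, or 28.6-fold in the model, with a log2 fold change of 4.84 (SE 0.17, edgeR adjusted p = 8.7e-12). It ranked 19th of all 15632 genes by log2 fold change, ahead of *Atf3* at 66 and *Ddit3* at 74.

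*Nupr1*, a small stress-induced chromatin protein (ENSMUSG00000030717.9, chr7:126623249-126630861 on the minus strand), was at 24.1 to 36.2 CPM in WT against 58 to 86.4 CPM with OPA1 loss. Its log2 fold change was 1.18 (SE 0.10, edgeR adjusted p = 2e-07), close to that of *Atf4*. *Chac1*, an enzyme that degrades glutathione (ENSMUSG00000027313.3, chr2:119351229-119354381 on the plus strand), rested on few reads, 18 to 62 estimated counts in WT mice, compared with 61 to 245 after OPA1 loss. It was at 0.939 to 3.79 CPM in WT against 3.7 to 12.1 CPM with OPA1 loss, where the lowest OPA1 BKO mouse, a male, lay just below the highest WT mouse, a female. The log2 fold change was 1.80 (SE 0.29, edgeR adjusted p = 0.000129).

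*Sesn2*, a leucine sensor that restrains mTORC1 (ENSMUSG00000028893.8, chr4:132492032-132510501 on the minus strand), was the member with the least separation. It was at 35.8, 33.5, 33 and 40.9 CPM in WT females and at 40.6, 50.1, 35.7 and 22.9 CPM in WT males. It was at 54.1, 38.9, 47.6 and 47.5 CPM in OPA1 BKO females and at 42.1, 42.7, 30.5 and 43 CPM in OPA1 BKO males. The ranges overlapped over most of their width, and the log2 fold change of 0.24 (SE 0.13, edgeR adjusted p = 0.161) did not pass the threshold. It passed at 0.32 (adjusted p = 0.0385) without WT male 2, which was the highest WT mouse, and at 0.80 (adjusted p = 3.2e-05) with library size alone. Relative to the median of all genes these scalings gave 0.23 with TMM and 0.24 with library size.

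Per transcript length, and in TPM computed without the mitochondrial genome, the order of the members differed between the genotypes. In WT mice *Atf5* was highest at 168 ± 47.4 TPM (SD, n = 8), followed by *Atf4* at 118 ± 18.1 and *Cebpb* at 113 ± 25, whose ranges overlapped each other. *Nupr1* at 63.7 ± 4.19 and *Ddit3* at 51.2 ± 7.74 TPM came next, then *Cebpg* at 26.5 ± 3.73 and *Sesn2* at 14.8 ± 3.25 TPM. *Trib3* at 7.51 ± 3.09 and *Atf3* at 6.67 ± 2.86 TPM overlapped, and *Chac1* was lowest at 1.68 ± 0.945 TPM. Every neighbouring pair in WT mice overlapped except *Ddit3* and *Cebpg*. In OPA1 BKO mice *Atf5* was again highest, at 838 ± 165 TPM, but *Ddit3* was second at 486 ± 84.4 TPM and was above *Atf4*, at 397 ± 73.8 TPM, in 8 of 8 mice. *Trib3* was next, instead of among the lowest as in WT mice, at 287 ± 48.5 TPM, and *Nupr1* was at 205 ± 32.1 TPM. *Cebpb* at 95.8 ± 14.9, *Atf3* at 77.5 ± 60.2 and *Cebpg* at 70.5 ± 9.54 TPM overlapped. *Sesn2* at 24.4 ± 4.68 TPM was below *Trib3* and *Atf3*, unlike in WT mice, and *Chac1* was again lowest at 8.08 ± 3.54 TPM, each apart from its neighbours.

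Whether the changes were the same in females and males was asked with a model of 4 group means. In each sex 8 members were higher, against 8.96% of all genes in females and 17.9% in males. None of the 10 members passed the test of the interaction of genotype and sex, which 0.115% of all genes passed. At an unadjusted p under 0.05, 2 members and 2052 of all genes passed, and DESeq2 called no member either. One of the 2 was *Atf3*, whose log2 fold change was 2.20 in females and 3.70 in males, a difference of 1.5 (SE 0.61, edgeR adjusted p = 0.304). The difference was 0.95 (adjusted p = 0.468) without the male at 228 CPM. The other was *Nupr1*, at 1.39 in females and 0.97 in males, a difference of -0.42 (SE 0.17, edgeR adjusted p = 0.306). *Atf4* itself was at 1.07 in females and 1.45 in males, a difference of 0.38 (SE 0.21, edgeR adjusted p = 0.461). *Ddit3* at 2.80 and 2.78 and *Chac1* at 1.79 and 1.80 had nearly the same estimate in both sexes.

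**Figure D3:**
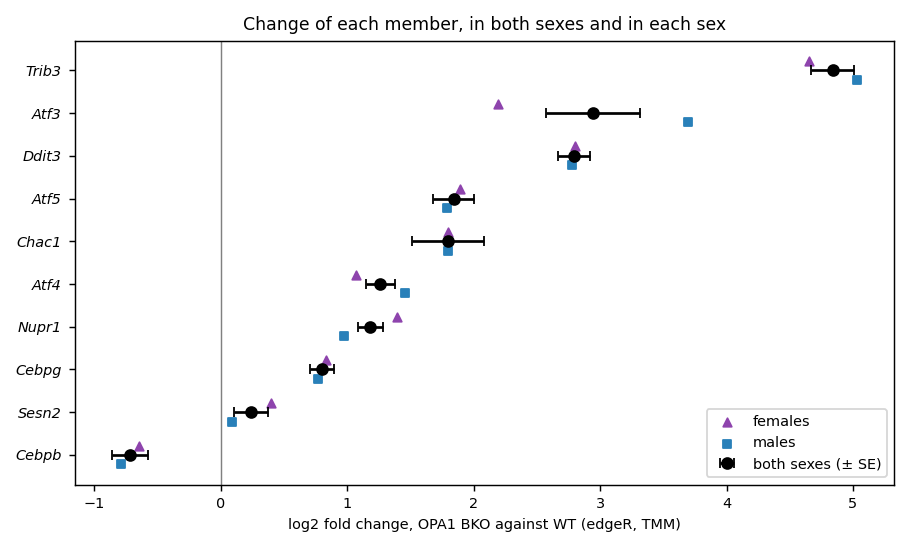
Log2 fold change of OPA1 BKO against WT mice (x axis, edgeR with TMM) for the 10 members (y axis), in both sexes with its SE (circles), in females (triangles) and in males (squares). *Trib3* is at 4.84 and *Cebpb*, whose sign turns on log2(TPM + 0.5), is at -0.72. The sexes lie farthest apart in *Atf3*.

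How far each member moved relative to *Atf4* was measured within each mouse, which needs no scaling between mice. By limma on the log2 ratio, 4 of the 9 other members rose more than *Atf4*, as 1.16% of all genes did, and 3 rose less or fell, as 89.1% of all genes did. The estimated counts of *Ddit3* were 0.11 to 0.231 per count of *Atf4* in WT mice, compared with 0.487 to 0.678 after OPA1 loss, without overlap, a log2 difference of 1.53 (SE 0.14, limma adjusted p = 6.77e-09). For *Trib3* they were 0.0333 to 0.142 in WT against 0.547 to 1.16 with OPA1 loss, a log2 difference of 3.60 (SE 0.20, limma adjusted p = 1.08e-10). Each WT mouse thus had fewer *Trib3* and *Ddit3* counts for its *Atf4* than any OPA1 BKO mouse. *Atf3* gained 1.70 (limma adjusted p = 9.4e-06) and *Atf5* gained 0.61 (limma adjusted p = 0.00251), the latter with overlapping mice.

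*Nupr1* had a log2 difference of -0.09 from *Atf4* (SE 0.16, limma adjusted p = 0.6), which did not pass the threshold, and *Chac1* gave 0.56 (SE 0.29, limma adjusted p = 0.0771). The *Chac1* difference passed without WT female 2, at 0.73 (limma adjusted p = 0.0191), and without OPA1 BKO male 3, at 0.67 (limma adjusted p = 0.041). *Cebpg* was lower by 0.47 relative to *Atf4* (log2 difference -0.47, limma adjusted p = 0.00305) and *Sesn2* had a log2 difference of -1.01 (limma adjusted p = 9.03e-05). The *Cebpb* counts were 0.523 to 1.12 per count of *Atf4* in WT mice, compared with 0.172 to 0.285 after OPA1 loss, a log2 difference of -1.95 (SE 0.15, limma adjusted p = 2.26e-09). The ratio of *Cebpb* to *Atf4* separated all mice of the genotypes, whereas *Cebpb* alone did not. *Atf4* alone separated them too, and 89.1% of all genes rose less than *Atf4* or fell. How many other genes have a ratio to *Atf4* that separates the mice was not counted, so the separation is not particular to *Cebpb*.

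**Figure D4:**
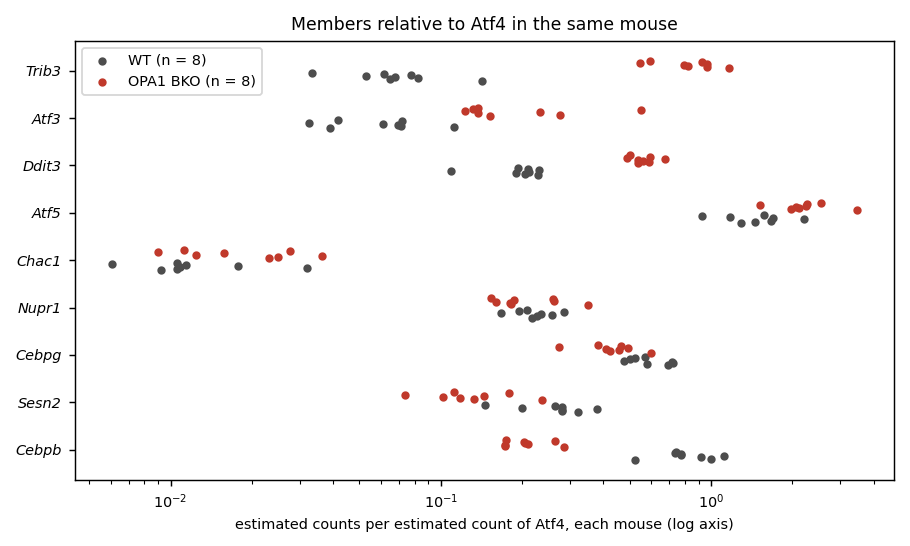
Estimated counts of each member per estimated count of *Atf4* (x axis, log scale) in each of the 8 WT and 8 OPA1 BKO mice (points), by member (y axis). *Ddit3*, *Trib3* and *Atf3* have every OPA1 BKO mouse to the right of every WT mouse, and *Cebpb* has every OPA1 BKO mouse to the left.

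Whether members followed *Atf4* from mouse to mouse was examined within each genotype, over 8 mice, on log2 CPM with exact two-sided permutation tests. Among OPA1 BKO mice, positive correlations with an exact p under 0.05 were found for 2 of the 9 other members, against 6.82% of all genes, and a negative one for 1 member, against 3.86%. None of these 3 nor any other of the 18 relations stayed under 0.05 after Benjamini-Hochberg adjustment over all genes. *Ddit3* gave Pearson's r = 0.867 (exact p = 0.00375, adjusted p = 0.305) and Spearman's rho = 0.81 (exact p = 0.0218, adjusted p = 0.594). With values centred on each sex r was 0.863 (exact p = 0.0139). Without the 2 mice farthest from the *Atf4* median, the lowest female and the highest male, r was 0.619 (exact p = 0.154), over fewer mice and a narrower range of *Atf4*. With 1 of the 8 mice left out in turn r was 0.719 to 0.945, and the exact p was above 0.05 only without the lowest female, at 0.719 (exact p = 0.0631).

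*Atf3* gave r = 0.727 (exact p = 0.0389, adjusted p = 0.447) and rho = 0.833 (exact p = 0.0154, adjusted p = 0.568) among OPA1 BKO mice. Within sexes r was 0.358 (exact p = 0.361), so a relation within the sexes was not detected, though 8 mice cannot exclude it. Without the 2 extreme mice r was 0.702 (exact p = 0.14). *Sesn2* ran against *Atf4*, with r = -0.737 (exact p = 0.0362, adjusted p = 0.443) and rho = -0.619 (exact p = 0.115, adjusted p = 0.69). It was -0.585 (exact p = 0.179) within sexes and -0.736 (exact p = 0.103) without the 2 extreme mice. *Trib3*, the most changed member, gave r = 0.0128 (exact p = 0.976, adjusted p = 0.993) and rho = 0.0476 (exact p = 0.935, adjusted p = 0.981), and *Opa1* gave r = -0.153 (exact p = 0.711, adjusted p = 0.899) and rho = -0.238 (exact p = 0.582, adjusted p = 0.868).

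Among WT mice no member had a positive correlation with an exact p under 0.05, which 2% of all genes had, and 1 had a negative one, which 1.6% had. That member was *Trib3*, with r = -0.7 (exact p = 0.0335, adjusted p = 1) and rho = -0.857 (exact p = 0.0107, adjusted p = 1). Its r was -0.744 (exact p = 0.00521) within sexes, -0.586 (exact p = 0.21) without the 2 mice farthest from the *Atf4* median and -0.437 (exact p = 0.328) with library size alone. *Ddit3*, which tracked *Atf4* among OPA1 BKO mice before adjustment, gave r = 0.00718 (exact p = 0.986, adjusted p = 1) and rho = 0.262 (exact p = 0.536, adjusted p = 1) among WT mice. That value rested on WT female 3, without which r was 0.83 (exact p = 0.0171), and it was 0.833 (exact p = 0.0111) without WT females 1 and 3, the 2 mice farthest from the *Atf4* median. Whether the correlations differed between the genotypes was not tested.

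**Figure D5:**
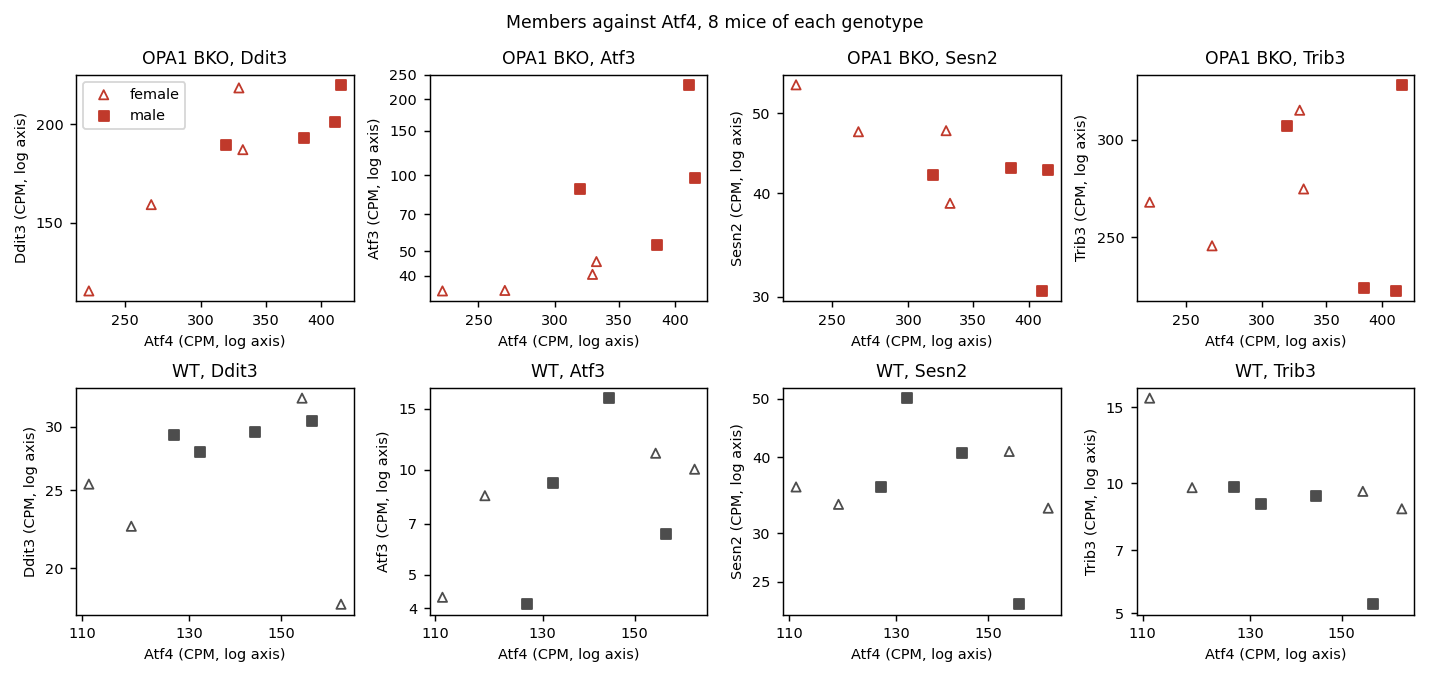
CPM of *Ddit3*, *Atf3*, *Sesn2* and *Trib3* (y axes, log scale) against CPM of *Atf4* (x axes, log scale) in 8 OPA1 BKO mice (top row) and 8 WT mice (bottom row), with females as open triangles and males as filled squares. Among OPA1 BKO mice r with *Atf4* was 0.867 for *Ddit3* and 0.0128 for *Trib3*, and neither passed an adjusted p of 0.05 over all genes.

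The genes whose level was most like that of *Atf4* were sought among the 10386 genes averaging 5 CPM or more, by Pearson's r over the 16 mice after centring on the 4 group means. They were *Slc20a1* (r = 0.893), *Senp3* (0.827), *Rbm6* (0.799), *Utp3* (0.796) and *Lyar* (0.789), and none of them is a member. Within the genotypes, without centring on sex, 4 of these 5 had a positive r in both, whereas *Rbm6* gave 0.819 among WT mice and -0.16 among OPA1 BKO mice. The points share library depth and scaling, and the values are given as a description. The nearest member was *Cebpb* at place 344 (r = 0.536), followed by *Atf3* at 643 (r = 0.463) and *Ddit3* at 923 (r = 0.414), and *Trib3* was the last member at place 9747 (r = -0.42).

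Around the members, the kinases and eIF2 machinery upstream of ATF4 were examined first. Of 19 such genes 5 were higher, 1 was lower and 13 were not called with TMM, against 20.8% higher and 20.2% lower among all genes. Their median log2 fold change was 0.10. With library size alone all 19 were called higher, as were 10863 of all 15632 genes. *Ppp1r15a*, the phosphatase subunit that reverses eIF2α phosphorylation and a CHOP target, rose by 2.14 (SE 0.16, edgeR adjusted p = 5.83e-08), and the ER stress kinase gene *Eif2ak3* rose by 0.65 (SE 0.11, edgeR adjusted p = 0.000156). *Eif2b1* had a log2 fold change of -0.29 with TMM (edgeR adjusted p = 0.000404), which turned to 0.26 (edgeR adjusted p = 0.000421) with library size alone. Relative to the median of all genes these were -0.302 and -0.301. *Eif2b2*, which like *Eif2b1* encodes a subunit of the exchange factor that reloads eIF2, rose by 0.48 (edgeR adjusted p = 0.000462).

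Other bZIP factors, which can pair or compete with the members, were mixed. Of 44 listed 41 were tested, and 16 were higher and 6 lower with TMM, against 20.8% and 20.2% of all genes. The median log2 fold change was 0.36. With library size alone 30 were higher and 3 lower, against 10863 and 374 of all 15632 genes. *Bach2*, a repressor best known from lymphocytes, rose by 1.58 (edgeR adjusted p = 1.08e-05) from a low level, 1.97 ± 0.28 CPM (SD, n = 8) in WT mice. *Atf6*, a sensor of ER stress, rose by 1.49 (edgeR adjusted p = 1.61e-08) and *Fosl2*, an AP-1 factor, by 1.43 (edgeR adjusted p = 5.44e-05). *Tef* and *Hlf*, factors of the circadian output, had log2 fold changes of -1.43 (edgeR adjusted p = 0.000186) and -0.99 (edgeR adjusted p = 0.000174) with TMM, of which that of *Hlf* turned to 0.16 (limma adjusted p = 0.316) on log2(TPM + 0.5). *Cebpa*, the adipocyte C/EBP gene, went from 581 ± 48.2 CPM (SD, n = 8) in WT to 310 ± 94.8 CPM (SD, n = 8) after OPA1 loss, with no overlap. Its log2 fold change was -0.94 (SE 0.13, edgeR adjusted p = 4.68e-05) with TMM and -0.01 (limma adjusted p = 0.914) on log2(TPM + 0.5). The median of all genes was 0.81 on the latter scale, and relative to it *Cebpa* was at -0.83 and *Hlf* at -0.655.

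None of the 5 paralogs of *Trib3*, *Sesn2* and *Chac1* was called higher with TMM, against 20.8% of all genes. With library size alone 3 were, as were 10863 of all 15632 genes. *Trib1* had a log2 fold change of -1.10 (SE 0.24, edgeR adjusted p = 0.00188) with TMM and -0.06 (limma adjusted p = 0.824) on log2(TPM + 0.5). *Trib2* had -0.43 (SE 0.10, edgeR adjusted p = 0.00191) with TMM, and turned to 0.12 (edgeR adjusted p = 0.269) with library size alone and to 0.52 (limma adjusted p = 0.000371) on log2(TPM + 0.5). The median of all genes was 0.81 on log2(TPM + 0.5), and relative to it *Trib1* was at -0.87 and *Trib2* at -0.295. *Sesn1* at -0.19, *Sesn3* at 0.16 and *Chac2* at 0.00 on the log2 scale were not called.

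Known targets of the network mostly rose with it. Of 22 genes of amino acid synthesis and transport 17 were higher and none lower, the median log2 fold change being 1.21, and 10 had no overlap between the genotypes. The amino acid transporter *Slc7a5* rose by 4.25 (edgeR adjusted p = 5.51e-08), and the mitochondrial folate enzymes *Mthfd2* and *Aldh1l2* rose by 3.96 (edgeR adjusted p = 1.22e-12) and 3.94 (edgeR adjusted p = 1.7e-07). *Slc7a5* and *Aldh1l2* started from only 0.62 ± 0.33 and 0.63 ± 0.41 CPM (SD, n = 8) in WT mice. On log2(TPM + 0.5) their rises were 3.26 and 2.44, where the median of all genes was 0.81. Of 22 targets in stress, redox balance and cell death 16 were higher and 2 lower, against the same 20.8% and 20.2% of all genes, with a median of 0.85. With library size alone these counts were 21 and 0 for the first list and 19 and 2 for the second. Among all 15632 genes they were then 10863 and 374. The secreted hormones *Gdf15* and *Fgf21* were at 0.153 ± 0.166 and 0.20 ± 0.219 CPM in WT mice, and the OPA1 BKO group was at 28.8 ± 38.7 and 7.37 ± 3.27 CPM (all SD, n = 8), without overlap in either gene. The growth arrest gene *Gadd45a* rose by 5.29 (edgeR adjusted p = 1.6e-13). The 2 lower genes were *Cebpa* and *Eif4ebp1*, a repressor of cap-dependent translation, whose log2 fold change was -0.82 (SE 0.10, edgeR adjusted p = 7.59e-06) with TMM and turned to 0.10 (limma adjusted p = 0.256) on log2(TPM + 0.5). Relative to the median of all genes, *Eif4ebp1* was at -0.83 with TMM and -0.715 on log2(TPM + 0.5). These lists were written with the direction of several of their genes known from the study, so their counts are not independent evidence of it.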

How the data were processed

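The authors sequenced stranded polyadenylated RNA from BAT of 16 mice and quantified it with Kallisto 0.45.0 (mm10 per the labels). The deposited files give, per transcript, an estimated count, left unscaled between mice, and a TPM, divided by length and brought to 1 total per mouse. Whether the strand was used is not given in the sources used here. Transcripts were joined to GENCODE M21 genes by identifier. Of 135308 transcripts, 2024 (0.483% to 0.73% of the counts) had no match and were left out. A second *Ddit3* entry with 1.7 estimated counts over all mice was left out too. Estimated counts were summed per gene, rounded, filtered (filterByExpr, minimum count 10, minimum total 15) and, after TMM, compared by the quasi-likelihood test of edgeR 4.0.16 under R 4.3.3. The prior count was 0.125. Ratios to *Atf4* came from limma 3.58.1 (log2 CPM, 0.5 added to each count), and correlations used exact permutation over 40320 orders (scipy 1.17.1). A difference was called at an adjusted p under 0.05. Scripts were tested on simulated data. No 2 files were identical, and Spearman's correlation within groups was 0.92 to 0.932. Counting error alone would be small at this depth for most members, though not for *Chac1*. In WT mice it would also be larger for *Bach2*, *Slc7a5* and *Aldh1l2*, with means of 1.97, 0.62 and 0.63 CPM. *Gdf15* and *Fgf21* lay near the level of 3 counts (0.13 to 0.19 CPM) in WT mice.

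Groups came from the labels, which name no litters or batches. Alternatives were DESeq2 1.42.0, other scalings, filters and units, no term for sex, and each mouse left out in turn. The members and gene lists were chosen with earlier results of these data known. Beside the members and *Opa1*, the text names for each pathway list the 3 genes with the largest rise and the 2 with the largest fall among those called, genes that a sentence on a list needs, and the 5 genes most like *Atf4*. Marker lists are given by counts and sums only.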

Additional observations from a re-analysis of the deposited data

Results flagged for a closer look

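In each of the 40 groups of 4 mice (10 members, 4 groups), the highest and the lowest mouse were compared with the others by Dixon's ratio against its 95% critical value. Chance alone passes this limit in about 1 of 20 groups, and 2 of the 40 passed. *Trib3* was at 15.8 CPM in WT female 1, above the other 3 WT females (ratio 0.852). *Sesn2* was at 30.5 CPM in OPA1 BKO male 3, below the other 3 OPA1 BKO males (ratio 0.931). No member's change differed between the sexes at an adjusted p under 0.05.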

How the results depend on the processing

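No paired analysis was possible because the labels give each mouse its own number and no pairs. The count of members called higher was 8 or 9 under all alternatives, the ninth being *Sesn2*, and the count of ratios called was 7 or 8. The *Cebpb* change turned to 0.264 and 0.266 (log2) on log2(TPM + 0.5) and log2(TPM + 0.1), where the median of all genes moved to 0.813 and 0.915. Members correlated with *Atf4* among OPA1 BKO mice numbered 3, but 1 on log2(TPM + 0.5), 1 within sexes and 0 without the 2 extreme mice, and 0 to 3 with 1 mouse left out (0 without OPA1 BKO female 1). Among WT mice the number was 1, but 0 with library size alone and on log2(TPM + 0.5), and 0 to 2 with 1 mouse left out. Over all genes, 3630 were higher and 1642 lower with scaling to *Tbp*, and 6076 and 1350 with library size without the mitochondrial genome. Interaction calls were 18 by edgeR, 349 by DESeq2, 204 with library size alone and 2 to 62 with 1 mouse left out. Genes with a larger change than *Atf4* numbered 181, or 87 on TPM. Leaving out the 6 mice with the most muscle markers, chosen after seeing the data, gave 2247 higher, 1953 lower and 0 interaction calls. *Opa1* was called lower under all alternatives. The other causes of these shifts were not tested.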

Other observations

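OPA1 BKO male 3, singled out after its values were seen, stood at the edge of the OPA1 BKO range for several members. It had the highest *Atf3* (228 CPM) and the lowest *Trib3* (226 CPM), *Cebpg* (113 CPM), *Chac1* (3.7 CPM) and *Sesn2* (30.5 CPM) of the 8 OPA1 BKO mice. Its *Atf4* (414 CPM) was the second highest. Its library was the smallest, with 13607283 estimated counts, and its macrophage markers summed to 504 CPM. Its fibroblast and preadipocyte markers summed to 1033 CPM, the most of all mice, and its skeletal muscle markers to 4663 CPM.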
